A study of Mus musculus with 6 samples.

Results

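The endoplasmic reticulum (ER) folding and stress genes are 40 mouse genes chosen by symbol from a list. They fall into 6 branches: 11 chaperones and cochaperones, 5 protein disulfide isomerases, 5 stress sensors and transcription factors, 8 genes of ER-associated degradation, 6 of protein translocation and 5 ATF4 targets. All 40 were found among the 54735 gene symbols of the count tables, and all 40 passed the filter on low counts, as did 19070 genes in all. The genes lie on 18 chromosomes and are protein coding in the GRCm38 annotation.

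The samples were 6 whole pancreata of e16.5 mouse embryos, whose total RNA was sequenced. The 3 control samples had the genotype Neurog3:cre, a recombinase driver of endocrine progenitors, and the 3 RARdn samples had Neurog3:cre together with RARdnfl/fl, so the driver was shared by both groups. RARdn is usually read as a receptor for retinoic acid in dominant-negative form, a reading the labels leave unstated, and the strain background was a C57Bl6/129SV mixture throughout. The driver acts in the endocrine lineage, while the tissue sequenced was the whole organ: in controls, a list of 20 endocrine genes took 0.373% to 0.425% of counts and a list of 37 acinar enzyme genes took 18.3% to 19.8%. The labels do not say whether samples came from separate litters, so the spread that p-values measure is the one among these 6 libraries and may be technical in part.

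Secreted and membrane proteins enter the ER through the Sec61 channel, are bound by chaperones such as BiP, acquire disulfide bonds through the protein disulfide isomerases, and are returned to the cytosol for destruction when folding fails. Unfolded protein in the ER is sensed by IRE1, PERK and ATF6, which act through spliced XBP1, through ATF4 and through cleaved ATF6 itself to raise the genes of this machinery. Acinar cells of the pancreas, which make digestive enzymes for export, are among the cells richest in rough ER.

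The libraries held 35256531 to 52015498 counts in genes. TMM scaling factors, which correct for differences in RNA composition, were 0.994, 1.004 and 0.975 in controls and 1.22, 0.975 and 0.862 in RARdn 1, 2 and 3, so levels in RARdn 1 and RARdn 3 depend on the scaling more than the others do. Reads outside genes made up 7.60% to 8.99% of all reads in controls and 2.90% to 5.30% in RARdn libraries. Xist, which marks female samples, was at 1158 and 1118 CPM (counts scaled for the depth of the library) in control 1 and 3 and at most 0.312 CPM in the other libraries, so sex was not balanced between the groups.

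The promoters of some members share a known sequence, which is shown first because it was found without any use of their counts. The ER stress response element (ERSE) is the site at which ATF6, with NF-Y at its CCAAT end, acts on chaperone genes. It was searched on both strands as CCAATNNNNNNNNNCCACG (on the other strand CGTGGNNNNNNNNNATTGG) in RefSeq windows of GRCm38.p6 that run from 250 bases before to 50 bases after each gene's start. Windows were found for 34 of the 40 members. The ERSE was present in 9 of these 34 (26.5%) and in 37 of all 27025 genes with a window (0.137%). The other 25 members with a window had none. The members were chosen as ER folding and stress genes, so their higher share is no independent result. The 9 were Hspa5, Hsp90b1, Calr, Canx, Dnajc3, Creld2, Pdia6, Syvn1 and Derl3. Its 2 end motifs, which lie inside it, are far more frequent singly: CCAAT stood in 73.5% of member windows and 41.1% of all, and CCACG in 79.4% and 35.5%. Hsp90b1 had the element on both strands, 212 and 107 bases before the start at the far end of each. Examples follow with the element in capitals, read along the gene's own strand. They are Hspa5 at chr2:34772005-34772063 (+), Hsp90b1 at chr10:86705618-86705676 (-), Calr at chr8:84847055-84847113 (-), Syvn1 at chr19:6046512-6046570 (+) and Derl3 at chr10:75893222-75893280 (+).
Hspa5: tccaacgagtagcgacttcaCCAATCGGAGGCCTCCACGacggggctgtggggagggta
Hsp90b1: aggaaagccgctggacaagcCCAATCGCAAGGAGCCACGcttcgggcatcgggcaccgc
Calr: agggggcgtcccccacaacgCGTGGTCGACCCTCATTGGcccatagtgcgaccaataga
Syvn1: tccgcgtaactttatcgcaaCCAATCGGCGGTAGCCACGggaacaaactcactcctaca
Derl3: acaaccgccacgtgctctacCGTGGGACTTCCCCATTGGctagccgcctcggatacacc
In Calr and Derl3 the element lies on the opposite strand, so its CCACG end comes first, as CGTGG.

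A second set of sequences is shown for the ATF4 branch and for Herpud1. The core of the C/EBP-ATF response element, through which ATF4 acts, was searched on both strands as TGATGNAA and stood in 4.51% of all windows. Among the members it stood in 4 of 34 windows (11.8%), those of Trib3, Chac1, Asns and Herpud1. In Trib3 it lay 14 to 21 bases after the start, and in the other genes before it. The compact variant ERSE-II, searched as ATTGGNCCACG, stood in 12 of all windows (0.0444%), of which 2 were members, Herpud1 and Dnajb11. In Dnajb11 it lay 7 to 17 bases after the start. The XBP1 core TGACGTGG was in none of the 34 member windows and in 0.714% of all. The examples are Herpud1 with ERSE-II at chr8:94386357-94386407 (+), Chac1 with the ATF4 core at chr2:119351029-119351076 (+) and Asns with the ATF4 core at chr6:7693210-7693252 (-), with the matched letters in capitals. These matches describe letters in a window and do not show that a factor is bound.
Herpud1: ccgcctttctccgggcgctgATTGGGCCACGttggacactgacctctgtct
Chac1: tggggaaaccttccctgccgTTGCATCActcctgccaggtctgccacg
Asns: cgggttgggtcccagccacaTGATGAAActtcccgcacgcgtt
In Chac1 the core reads on the opposite strand.

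RARdn and control pancreata were compared to ask whether any of these genes differed between genotypes. None of the 40 members was called by edgeR's quasi-likelihood test at an adjusted p under 0.05, where 4.02% of all genes tested were called, 1.37% higher and 2.65% lower. At an unadjusted p under 0.05 there were 6 members, against 22.2% of all genes. These were Hsp90b1, Pdia4, Atf6 and Edem1 with lower values in RARdn pancreas (10.2% of all genes) and Dnajb9 and Ddit3 with higher values (12% of all genes). Of the 40, 27 had a log2 fold change below 0, and their median was -0.18, where 50% of all genes lay below 0 and the median was 0.00051. The log2 fold changes ran from -0.70 for Edem1 to 0.54 for Dnajb9, and the adjusted p from 0.115 to 0.989. A 95% interval that stayed between -1 and 1, and so did not reach a 2-fold difference, was found for 32 of the 40 members and 65.8% of all genes. Most members are abundant, and among genes with a control mean of at least 20 CPM the share was 95.2%. In those genes, 56% had a log2 fold change below 0.

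**Figure D1:**
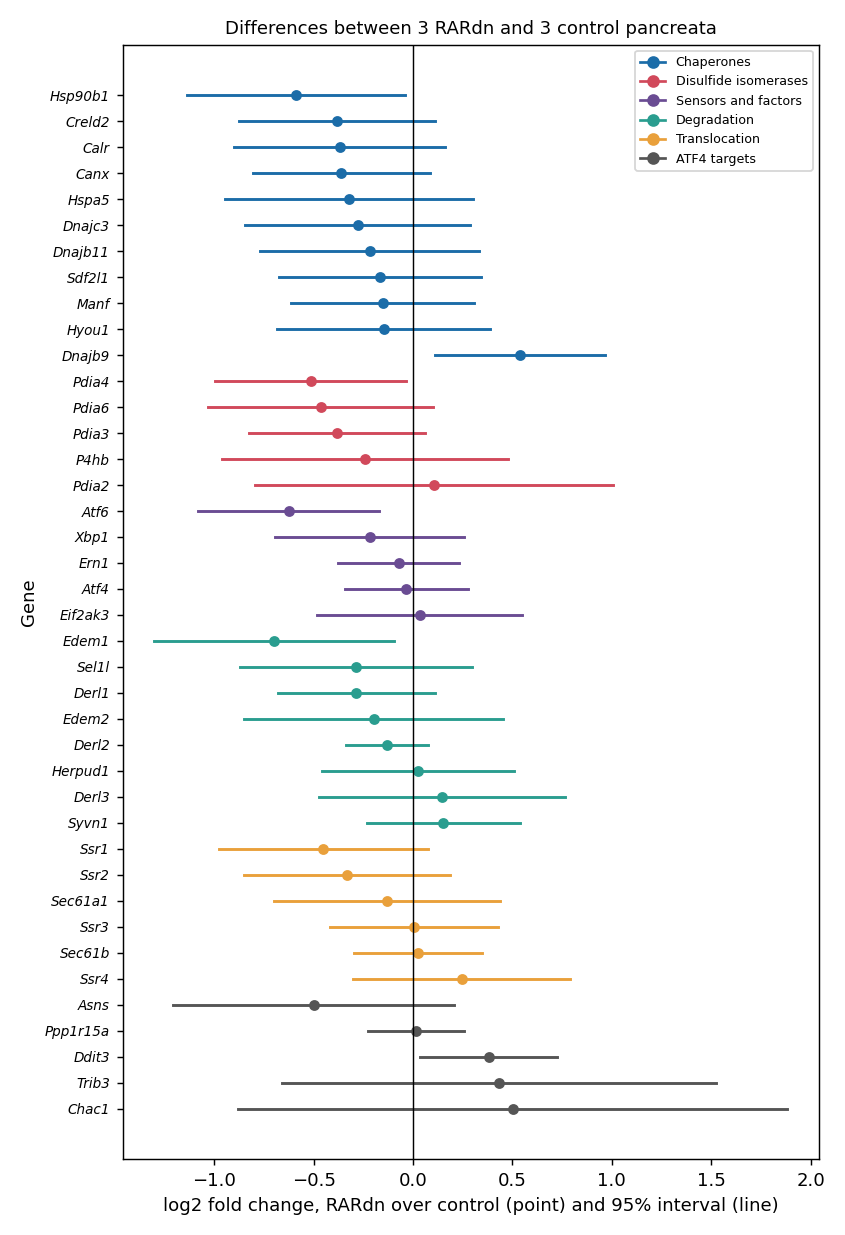
Log2 fold change of RARdn over control for each of the 40 genes (horizontal axis, point) with its 95% interval from edgeR (line), grouped and coloured by branch. The points lie between -0.70 (Edem1) and 0.54 (Dnajb9), and the intervals of Hsp90b1, Pdia4, Atf6, Edem1, Dnajb9 and Ddit3 do not reach 0, although no gene passed after adjustment.

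No member was called, and the 3 RARdn pancreata had a wide and ordered spread. The SD of log2 CPM was larger in RARdn than in control libraries in 35 of 40 members and in 70.5% of all genes. It was larger in 80.9% of genes with a control mean of at least 20 CPM, so the wider spread was not particular to the members. Relative to the control mean, the median over the members was -0.62 log2 units in RARdn 1, -0.33 in RARdn 2 and 0.20 in RARdn 3, where the medians of all genes tested were 0.0091, 0.013 and -0.0062. RARdn 1 lay below all 3 controls in 35 of 40 members (36.4% of all genes) and RARdn 2 in 26 of 40 (35.6% of all genes). RARdn 3 lay below all controls in 1 of 40 members, Edem1 (35.4% of all genes), and above all controls in 26 (32.6% of all genes). All 26 that were below the controls in RARdn 2 were also below them in RARdn 1, and 24.1% of all genes were below the controls in both. Among genes with a control mean of at least 20 CPM, 46%, 48.1% and 28.8% lay below all controls in RARdn 1, 2 and 3. In the same genes, 34.4% lay below them in both RARdn 1 and RARdn 2, and 40.4% above them in RARdn 3. With scaling by library totals alone, RARdn 1 lay below all controls in 24 members (16.8% of all genes) and RARdn 2 in 26 (37.5% of all genes). RARdn 3 then lay below all controls in 16 members, where 57.4% of all genes did, and above them in 13, where 13.5% of all genes did. Among genes with a control mean of at least 20 CPM these shares were 16.6%, 51.2%, 63.3% and 11%, in the order given. RARdn 3 was the highest RARdn library in 35 of 40 members after TMM scaling (31.4% of all genes) and in 31 by library totals (9.37% of all genes). RARdn 1 was the lowest in 29 members after TMM scaling (30.2% of all genes) and in 16 by library totals (8.84% of all genes). Of genes with a control mean of at least 20 CPM, RARdn 3 was highest in 48% after TMM scaling and 11.9% by library totals. RARdn 1 was lowest in 35.3% and 6.77% of them. As a share of all counts, the members together took 2.24% to 2.55% in controls, 1.80% and 1.85% in RARdn 1 and RARdn 2, and 2.42% in RARdn 3, inside the control range.

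**Figure D2:**
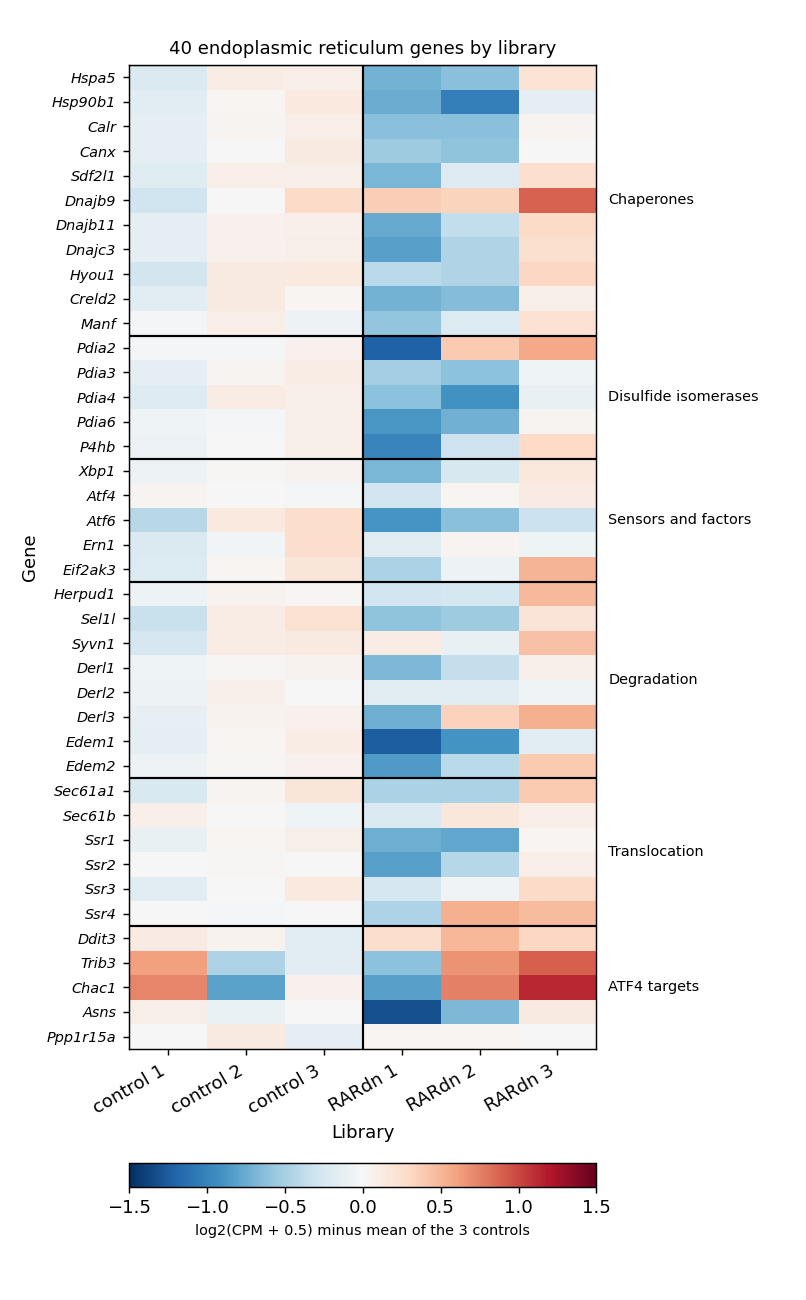
Level of each of the 40 genes (rows, grouped by branch) in each of the 6 libraries (columns) as log2(CPM + 0.5) minus the mean of the 3 controls, on a colour scale from -1.5 (blue) to 1.5 (red). Most rows are blue in RARdn 1 and RARdn 2 and pale or red in RARdn 3, with medians of -0.62, -0.33 and 0.20.

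The number of calls turned on RARdn 3. Without it, edgeR called 17 members lower and none higher, where 7.84% of all genes were called lower and 6.98% higher: Hspa5, Hsp90b1, Calr, Canx, Dnajb11, Dnajc3, Creld2, Pdia3, Pdia4, Pdia6, Atf6, Derl1, Edem1, Edem2, Ssr1, Ssr2 and Asns. That fit compares 3 controls with 2 RARdn libraries. Leaving out any other single library left 0 members called. DESeq2 on all 6 libraries called 2 members lower, Atf6 and Edem1, where 5.1% of all genes were called higher and 5.1% lower. Without a filter on low counts edgeR called Dnajb9 higher and Atf6 lower, where 3.31% of all genes were called higher and 3.61% lower. The same 2 members were called with a replicate block, where the shares were 1.68% and 2.6%. Without RARdn 1 the median over the members moved from -0.18 to 0.015.

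Lists of cell type genes were read beside these levels, since in whole tissue fewer cells of a type and less RNA per cell cannot be told apart. All 37 acinar enzyme genes were tested and none was at 0 in any library. Their summed level was 182643 to 199771 CPM among controls and reached 61743, 238457 and 326934 CPM in RARdn 1, 2 and 3. The share of counts did not separate the groups (19.2% ± 0.780 and 19.6% ± 10.8, SD, n = 3 each, 2-sided exact permutation p = 1, where the smallest possible is 0.1). The share of the 7 acinar regulator genes, which encode transcription factors of acinar cells, was 0.240% ± 0.0219 in controls and 0.199% ± 0.00337 in RARdn libraries (SD, n = 3 each), with no overlap and the smallest p this exact permutation test allows, 0.1. RARdn 2 was thus above every control for the digestive enzymes and below every control for 26 of the 40 ER genes. After TMM scaling the regulators had medians over genes of -0.69, -0.60 and 0.19 log2 units in RARdn 1, 2 and 3, and their summed level in RARdn 3, 2277 CPM, was within the control range of 2164 to 2589 CPM. Most of the regulator sum, and so of the share, came from Rbpjl alone. It was at 1443, 1672 and 1679 CPM in controls and at 1174, 1497 and 1299 CPM in RARdn 1, 2 and 3. In RARdn 3, Rbpjl and Nr0b2 were below every control and Nr5a2 was within the control range. Ptf1a, Bhlha15, Gata4 and Foxp2 were above every control there, so the lower share does not describe each regulator. Bhlha15, which encodes the secretory cell factor MIST1, was at 430, 518 and 561 CPM in the controls and at 280, 305 and 618 CPM in RARdn 1, 2 and 3.

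Genes of other cell types also differed among these libraries. The epithelial keratin gene Krt8 was at 530, 603 and 576 CPM in controls and at 316, 293 and 555 CPM in RARdn 1, 2 and 3, and the sum of 10 duct genes was 2149 to 2362 CPM among controls and reached 1504, 1746 and 2569 CPM in RARdn 1, 2 and 3. The 12 mesenchyme genes summed to between 7001 and 9124 CPM among controls, and to between 11168 and 12298 CPM among RARdn libraries. Of 13 hepatocyte genes, 10 were tested and 5 were at 0 in at least 1 library. Their sum was 383 to 413 CPM among controls and reached 1564, 608 and 449 CPM in RARdn 1, 2 and 3. Nearly all of the sum in controls and in RARdn 3 was Ttr. Ttr was at 388, 360 and 383 CPM in controls and at 284, 318 and 421 CPM in RARdn 1, 2 and 3. The sum in RARdn 3 thus mostly gives the level of Ttr. Alb, the albumin gene, was at 597, 137 and 3.19 CPM in RARdn 1, 2 and 3 and at most 2.92 CPM in controls. Plasma cells are another cell type rich in ER. Of 7 markers, 3, among them Jchain and Tnfrsf17, were under 1 CPM in every library. Others were higher: Sdc1 was at 64.6 to 70.0 CPM in controls and at 69.2 to 74.7 CPM in RARdn libraries. Ighm was at 0.972 to 2.48 CPM and at 2.93 to 5.11 CPM, and Prdm1 at 3.06 to 3.71 CPM and at 2.14 to 3.12 CPM, in the same order. Whether plasma cells were present was not tested. The part of the duct, mesenchyme and hepatocyte lists in the ER results was not tested. With the summed acinar enzyme level as a term in the fit, edgeR called 0 members and 1434 of all 19070 genes. The median was -0.16 over the members and -0.011 over all genes.

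**Figure D3:**
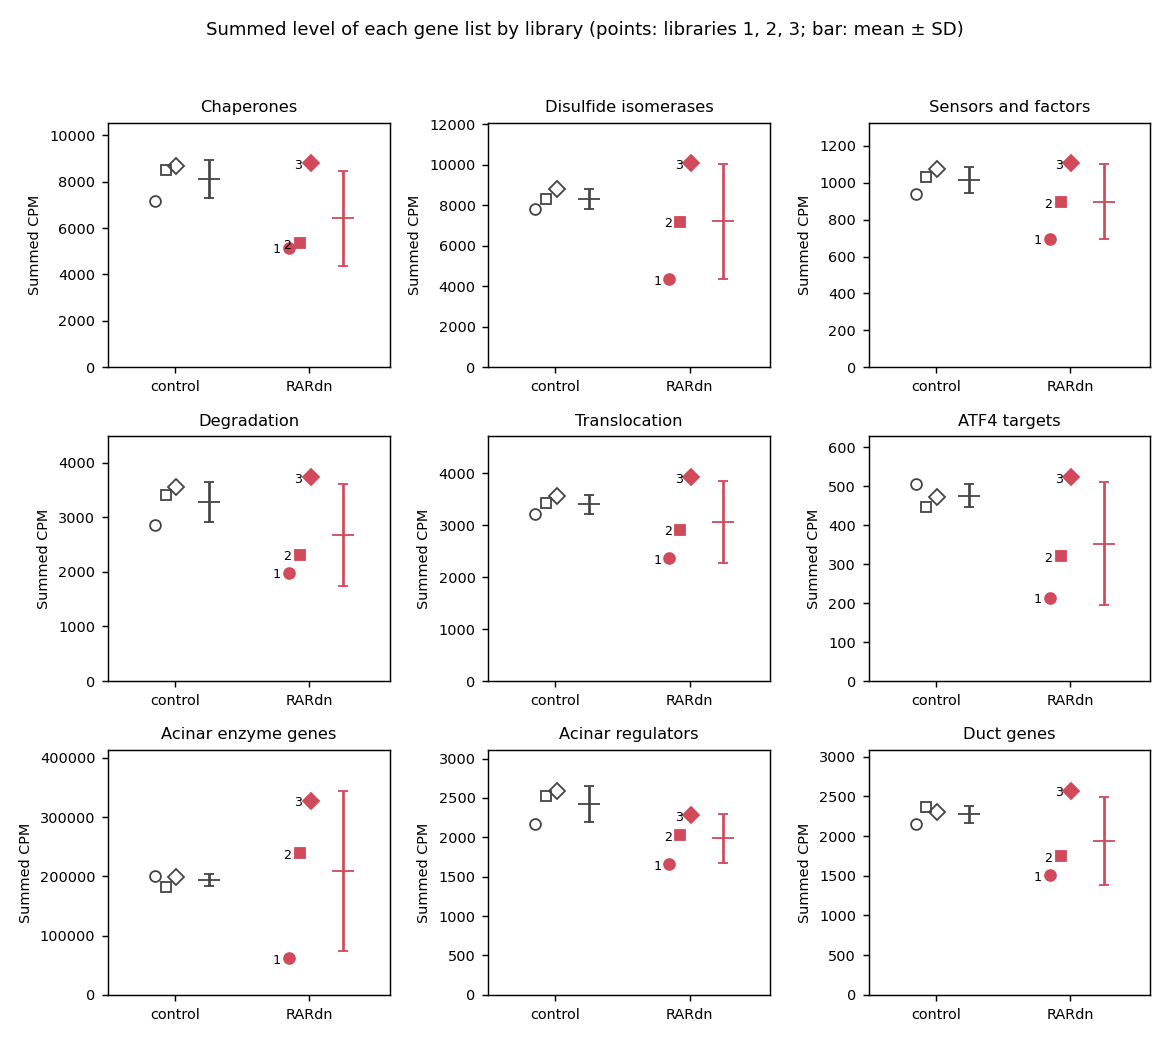
Summed CPM (vertical axes, from 0) of the 6 branches and of the acinar enzyme, acinar regulator and duct gene lists in each library, with open grey symbols for control 1 (circle), 2 (square) and 3 (diamond), filled red symbols for RARdn 1, 2 and 3, and mean ± SD beside them. RARdn 1 is the lowest library in every panel, and RARdn 2 lies below the controls for the chaperones but above them for the acinar enzymes.

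Among the chaperones, 10 of 11 had a log2 fold change below 0 and the median was -0.28, and none was called. Hspa5 encodes BiP, the main HSP70 chaperone of the ER lumen, and its promoter carries the ERSE shown above. It was at 1736, 2191 and 2167 CPM in the 3 controls and at 1237, 1310 and 2334 CPM in RARdn 1, 2 and 3 (log2 fold change -0.32 with SE 0.27, 95% interval -0.94 to 0.30, adjusted p = 0.535). RARdn 1 and RARdn 2 were below every control and RARdn 3 was above every control, so the groups overlapped. Hsp90b1, the gene of the HSP90 paralogue GRP94, was at 1019, 1168 and 1265 CPM in controls and at 685, 564 and 1043 CPM in RARdn 1, 2 and 3 (log2 -0.59 with SE 0.24, unadjusted p = 0.0375, adjusted p = 0.195). It was the chaperone with the lowest log2 fold change, and RARdn 3 still lay within the control range.

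The lectin chaperones calreticulin and calnexin hold glycoproteins while they fold. Calr was at 1825, 2073 and 2150 CPM in controls and at 1301, 1305 and 2075 CPM in RARdn 1, 2 and 3 (log2 -0.37, adjusted p = 0.388). Canx was at 614, 682 and 744 CPM and at 467, 445 and 677 CPM in the same order (log2 -0.36, adjusted p = 0.319). Both genes had nearly equal levels in RARdn 1 and RARdn 2, which differed by 0.0044 log2 units for Calr and by -0.069 for Canx, and both were within the control range in RARdn 3. Hyou1, which encodes a large chaperone that exchanges nucleotide on BiP, and Creld2, a stress-induced ER protein gene, had log2 fold changes of -0.15 and -0.38 (adjusted p = 0.756 and 0.339).

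Cochaperones of BiP did not go one way. Dnajb9 encodes ERdj4, a J-domain protein that is a classic target of spliced XBP1 and holds IRE1 in check. It was at 34.9, 43.0 and 52.5 CPM in controls and at 55.8, 54.4 and 79.8 CPM in RARdn 1, 2 and 3 (log2 0.54 with SE 0.19, 95% interval 0.11 to 0.97, unadjusted p = 0.0191, adjusted p = 0.141). All 3 RARdn libraries were above all 3 controls. Such a separation upward was found in 2 of 40 members, Dnajb9 and Ddit3, and in 13.9% of all genes tested, so it was not more frequent among the members. Per Hspa5 count, Dnajb9 was at 0.0213 ± 0.00253 in controls and 0.0403 ± 0.00556 in RARdn libraries (SD, n = 3 each), with no overlap. This ratio is free of any scaling between libraries. It was among several ratios picked after the values were seen, and not all of them separated the groups.

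The other J-domain cochaperones behaved like Hspa5. Dnajc3, the gene of the PERK inhibitor p58IPK, was at 384, 445 and 455 CPM in controls and at 243, 313 and 502 CPM in RARdn 1, 2 and 3 (log2 -0.28, adjusted p = 0.552). Dnajb11, the gene of ERdj3, was at 251, 288 and 293 CPM and at 163, 213 and 339 CPM (log2 -0.22, adjusted p = 0.641). In both, RARdn 1 and RARdn 2 were under and RARdn 3 was over the control range. Sdf2l1, whose product works with ERdj3, and Manf, which encodes a secreted ER stress protein, had log2 fold changes of -0.17 and -0.15 (adjusted p = 0.706 and 0.700).

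The protein disulfide isomerases include the members with the highest levels per length. In controls, P4hb was at 1270 ± 76.2 and Pdia2 at 1166 ± 41.6 CPM per kilobase of exon (SD, n = 3), the 2 highest of all members on this scale, followed by Calr at 700.0 ± 59.0 and Hspa5 at 480 ± 60.5. At the low end were Chac1 at 1.52 ± 0.912 and Trib3 at 1.28 ± 0.610 CPM per kilobase. The 5 isomerases had a median log2 fold change of -0.38, 4 of 5 were below 0, and none was called.

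Pdia2, a disulfide isomerase gene known for its expression in pancreas, departed from the rest. It was at 1968, 1963 and 2090 CPM in controls and at 862, 2631 and 2982 CPM in RARdn 1, 2 and 3 (log2 0.10 with SE 0.40, 95% interval -0.80 to 1.01, adjusted p = 0.905). RARdn 1 was below and RARdn 2 and 3 were above every control, which is the order of the acinar enzyme sum. From RARdn 1 to RARdn 2 its level differed by 1.61 log2 units, where the median difference was 0.25 over all members and 2.26 over the 37 acinar enzyme genes. Per Hspa5 count, Pdia2 was at 0.896 to 1.13 in controls and at 0.697, 2.01 and 1.28 in RARdn 1, 2 and 3.

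P4hb, the gene of the founding disulfide isomerase, lay between these patterns, at 3419, 3629 and 3854 CPM in controls and at 1834, 2918 and 4471 CPM in RARdn 1, 2 and 3 (log2 -0.24, adjusted p = 0.698). Pdia4 was at 377, 469 and 457 CPM and at 282, 230 and 401 CPM (log2 -0.51 with SE 0.21, unadjusted p = 0.0388, adjusted p = 0.198). Pdia4 was thus lowest in RARdn 2, the library in which Pdia2 exceeded every control. Pdia3, which pairs with the lectin chaperones, and Pdia6 had log2 fold changes of -0.38 and -0.46 (adjusted p = 0.290 and 0.312), with RARdn 1 and RARdn 2 below every control in both.

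**Figure D4:**
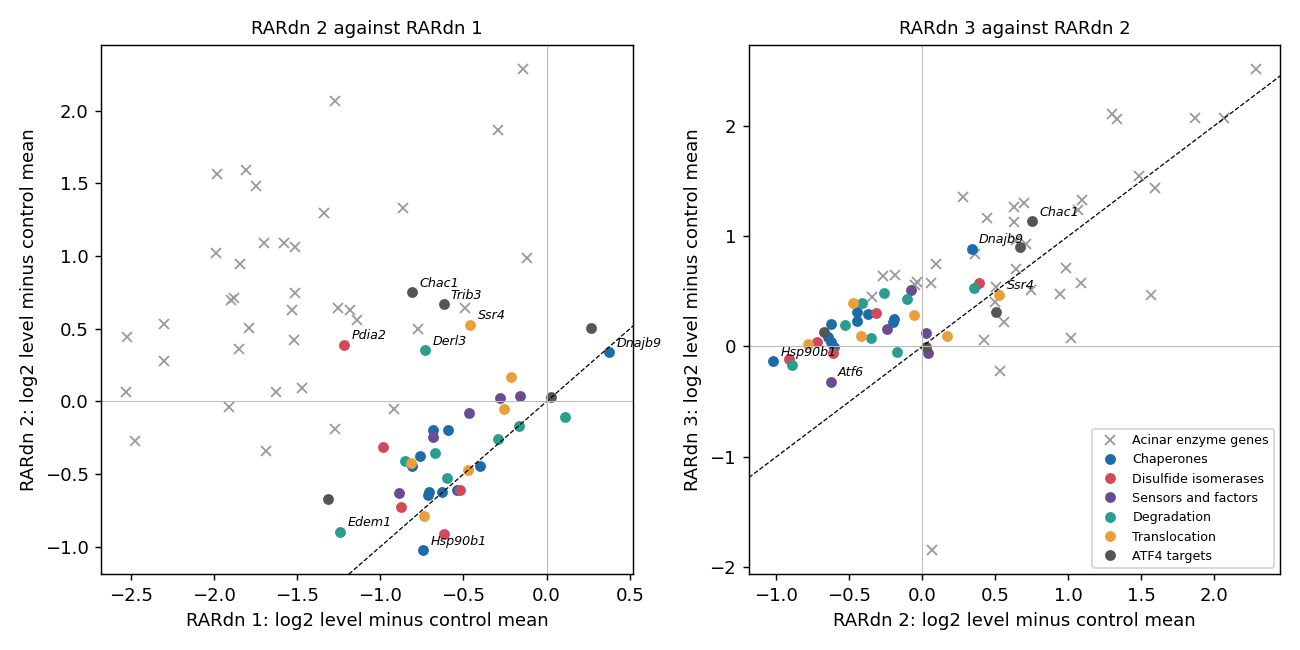
Levels relative to the control mean (log2 units) in RARdn 2 against RARdn 1 (left) and in RARdn 3 against RARdn 2 (right) for the 40 members, coloured by branch, and for 37 acinar enzyme genes (crosses), with a dashed line where both libraries are equal. On the left most members lie near the line and below 0 while the acinar enzyme genes lie far above it, and Pdia2, Derl3, Ssr4, Chac1 and Trib3 lie between the line and the crosses or among them.

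Among the 5 sensors and transcription factors, none of which was called, the log2 fold change farthest from 0 was that of Atf6, the gene of the sensor that is cut in the Golgi to release a transcription factor. It was at 82.0, 121 and 132 CPM in controls and at 58.9, 70.6 and 87.7 CPM in RARdn 1, 2 and 3 (log2 -0.63 with SE 0.20, 95% interval -1.08 to -0.17, unadjusted p = 0.0126, adjusted p = 0.115). It had the lowest adjusted p of the members, and only RARdn 3 reached into the control range, above control 1. DESeq2 called it lower (adjusted p = 0.0408), and so did edgeR without a filter on low counts (0.0391), and its adjusted p ranged from 0.0300 to 0.418 over all alternatives run.

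Xbp1, the gene whose mRNA is spliced by IRE1, was at 474, 507 and 518 CPM in controls and at 311, 422 and 557 CPM in RARdn 1, 2 and 3 (log2 -0.22, adjusted p = 0.582). Counts per gene do not separate its spliced from its unspliced form. Ern1, which encodes IRE1, was at 66.7, 75.7 and 93.4 CPM and at 69.6, 80.0 and 74.5 CPM (log2 -0.073, 95% interval -0.38 to 0.23, adjusted p = 0.792). Its RARdn libraries all lay inside the control range. Eif2ak3, which encodes PERK, and Atf4, the factor translated when PERK is active, had log2 fold changes of 0.035 and -0.034 (adjusted p = 0.945 and 0.911), with 95% intervals of -0.48 to 0.55 and -0.34 to 0.28. The branch median was -0.073.

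In the degradation branch, 5 of 8 genes were below 0 and the median was -0.16, and none was called. Edem1 encodes a lectin that takes misfolded glycoproteins out of the folding cycle. It was at 771, 876 and 926 CPM in controls and at 361, 459 and 763 CPM in RARdn 1, 2 and 3 (log2 -0.70 with SE 0.26, 95% interval -1.30 to -0.10, unadjusted p = 0.0276, adjusted p = 0.168). Edem1 was the only member whose RARdn libraries all lay below all controls, by a small margin for RARdn 3, where 13.7% of all genes were separated that way. DESeq2 called it lower (adjusted p = 0.0492), and its adjusted p ranged from 0.0138 to 0.576 over all alternatives. Its relative Edem2 was at 644, 690 and 711 CPM and at 377, 513 and 893 CPM (log2 -0.20, adjusted p = 0.729), with RARdn 3 above every control.

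The ubiquitin ligase complex at the ER membrane is built from HRD1 and SEL1L. Sel1l was at 823, 1127 and 1215 CPM in controls and at 686, 721 and 1189 CPM in RARdn 1, 2 and 3 (log2 -0.29, adjusted p = 0.554). Syvn1, which encodes HRD1 and has an ERSE, was at 129, 166 and 170 CPM and at 166, 143 and 208 CPM (log2 0.15, adjusted p = 0.640). The partner genes thus differed in RARdn 1, where Sel1l was below every control and Syvn1 was within the control range. Herpud1, a stress-induced scaffold of the complex, was at 267, 293 and 286 CPM and at 230, 235 and 396 CPM (log2 0.025, adjusted p = 0.957).

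The derlins form part of the channel through which proteins leave the ER. Derl3, the derlin of secretory cells, was at 72.1, 81.3 and 82.3 CPM in controls and at 47.2, 100.2 and 114 CPM in RARdn 1, 2 and 3 (log2 0.14, adjusted p = 0.798). Like Pdia2 it was below every control in RARdn 1 and above every control in RARdn 2 and 3. Derl1 was at 102, 108 and 110 CPM and at 66.8, 83.4 and 113 CPM (log2 -0.29, adjusted p = 0.373). Derl2 hardly varied, at 55.2 to 61.5 CPM among controls and 51.8 to 56.4 CPM among RARdn libraries (log2 -0.13, 95% interval -0.34 to 0.08, adjusted p = 0.436).

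In the translocation branch the genes of 1 complex had unlike values. Ssr1 to Ssr4 encode the subunits of the translocon-associated protein complex (TRAP), which sits beside the Sec61 channel. Ssr1 was at 670, 742 and 771 CPM in controls and at 436, 421 and 739 CPM in RARdn 1, 2 and 3 (log2 -0.45 with SE 0.23, adjusted p = 0.291). Ssr4 was at 338, 332 and 336 CPM and at 244, 484 and 464 CPM (log2 0.24 with SE 0.24, adjusted p = 0.594). In RARdn 2, Ssr1 was below and Ssr4 above every control. Per Ssr1 count, Ssr4 was at 0.435 to 0.504 in controls and at 0.559, 1.15 and 0.628 in RARdn 1, 2 and 3, with no overlap between groups. This ratio too was among several picked after the values were seen. Of the others, Derl3 per Edem1 also separated the groups, while P4hb per Pdia3, Sdf2l1 per Hspa5 and Pdia2 per Hsp90b1 did not. The share of all gene pairs that separate was not tested. Ssr2 and Ssr3 had log2 fold changes of -0.33 and 0.0062 (adjusted p = 0.426 and 0.989).

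No gene of the Sec61 channel was called. Sec61a1, the gene of the pore subunit, was at 393, 472 and 520 CPM in controls and at 330, 330 and 603 CPM in RARdn 1, 2 and 3 (log2 -0.13, adjusted p = 0.799). Like Hspa5 it was below every control in RARdn 1 and 2 and above every control in RARdn 3. Sec61b, a small subunit gene, was at 321, 303 and 292 CPM and at 263, 342 and 326 CPM (log2 0.023, 95% interval -0.30 to 0.35, adjusted p = 0.941). Sec61g, the other small subunit gene, is no member and was picked after its values were seen. It was at 163, 155 and 146 CPM in the controls and at 204, 219.7 and 185 CPM in RARdn 1, 2 and 3, with no overlap (log2 0.39 with SE 0.12, unadjusted p = 0.00916, adjusted p = 0.0990). The branch median was -0.063, with 3 of 6 genes below 0 and none called.

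ATF4 targets include the genes of the terminal stress response, and 4 of 5 had a log2 fold change above 0 (median 0.38, none called). That median was 0.14 without control 2 and 0.057 without RARdn 3. A separate list of 22 other ATF4 targets lay the other way, with 18 below 0 and a median of -0.26. By library, the median over the 5 member targets was -0.62, 0.50 and 0.31 log2 units in RARdn 1, 2 and 3. Their summed level, most of it from Asns, was lower in RARdn libraries (475 ± 29.3 CPM in controls and 352 ± 157 CPM in RARdn, SD, n = 3 each). The sum and the median of the branch thus went opposite ways. Ddit3, the gene of the death-promoting factor CHOP, was at 8.48, 8.06 and 6.83 CPM in controls and at 9.45, 11.2 and 9.74 CPM in RARdn 1, 2 and 3 (log2 0.38 with SE 0.15, unadjusted p = 0.0335, adjusted p = 0.184). All RARdn libraries were above all controls, and these levels rest on 295 to 568 counts per library. Exons of Ddit3 overlap those of Mars on the other strand, and 2 gene identifiers share its symbol, so reads can have been lost or misassigned there.

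Trib3, a pseudokinase gene, and Chac1, which encodes an enzyme that breaks down glutathione, are induced late in the response. Trib3 was at 4.18, 1.72 and 2.25 CPM in controls and at 1.49, 4.36 and 5.20 CPM in RARdn 1, 2 and 3 (log2 0.43 with SE 0.48, adjusted p = 0.640). Chac1 was at 4.05, 1.07 and 2.36 CPM and at 1.06, 4.10 and 5.50 CPM (log2 0.50 with SE 0.61, adjusted p = 0.673). The 2 genes ranked the 6 libraries in the same order at both ends, with RARdn 1 lowest and RARdn 3 highest. Their SDs were 1.30 CPM in controls and 1.95 CPM in RARdn libraries for Trib3, and 1.49 and 2.27 CPM for Chac1. The log2 fold change of Chac1 was 0.14 without control 2, 0.057 without RARdn 3, 1.04 without control 1, 0.98 without RARdn 1 and 1.76 with a term for Xist. That of Trib3 was 0.19, 0.11, 0.88, 0.85 and 1.12 under the same changes, and 0.29 without RARdn 2. With limma-voom the values were 0.29 for Chac1 and 0.27 for Trib3. Chac1 rests on 48 to 208 counts per library.

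Asns, asparagine synthetase, is an ATF4 target that serves amino acid supply. It was at 463, 408 and 439 CPM in controls and at 175, 274 and 477 CPM in RARdn 1, 2 and 3 (log2 -0.50 with SE 0.31, 95% interval -1.21 to 0.21, adjusted p = 0.380). Unlike Trib3 and Chac1 it was below every control in RARdn 2 as well as RARdn 1, although all 3 windows hold the ATF4 core. In Trib3 that core lies after the start. Ppp1r15a, which encodes the phosphatase subunit GADD34 that restores translation, stayed within 0.029 log2 units of the control mean in every RARdn library, the least of all members, at 26.0, 28.6 and 23.5 CPM in controls and at 26.5, 26.5 and 26.0 CPM in RARdn libraries (log2 0.015, 95% interval -0.23 to 0.26, adjusted p = 0.949).

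Other genes of the same pathways were taken from 5 lists that leave out the 40 members. Of 26 other folding genes none was called, 19 were below 0 and the median was -0.19, beside -0.28 for the member chaperones and -0.38 for the isomerases. Of 27 other translocation genes, 21 were below 0 and the median was -0.19, beside -0.063 for the member branch. Where edgeR called 4.02% of all genes tested, 2.65% lower, 1 gene of this list was called. This was Srprb, which encodes the membrane subunit of the signal recognition particle receptor, at 60.0, 51.2 and 73.0 CPM in controls and at 26.7, 29.0 and 41.0 CPM in RARdn 1, 2 and 3 (log2 -0.93 with SE 0.19, adjusted p = 0.0334). Srprb fell, and all 3 RARdn libraries lay below all controls. Its call was kept without RARdn 3 (adjusted p = 0.0111) and not without control 1, 2 or 3 or RARdn 1 or 2 (0.0771, 0.0632, 0.109, 0.0636 and 0.108), under a filter of 1 CPM in 3 libraries (0.0543) or after a term for Xist was added (0.393).

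None of the 17 other degradation genes, 14 other sensor genes tested of 15 listed, or 22 other ATF4 targets was called. Below 0 were 10, 6 and 18 of them, and their medians were -0.055, 0.011 and -0.26, beside -0.16, -0.073 and 0.38 for the member branches. Of the lists, 1 entry of the sensors did not pass the filter. The most abundant genes of these lists were Vcp, the ATPase that pulls proteins out of the ER membrane (447 ± 31.8 and 306 ± 93.1 CPM, log2 -0.55, adjusted p = 0.169), Mbtps1, the protease that cuts ATF6 (199.8 ± 8.32 and 213 ± 12.6 CPM, log2 0.092, adjusted p = 0.677), and Nupr1 (668 ± 20.7 and 537 ± 133 CPM, log2 -0.31, adjusted p = 0.390). Among the other folding genes the most abundant was the prolyl isomerase gene Ppib (log2 0.042, adjusted p = 0.929).

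Members that hold the ERSE were set beside those that do not. The 9 holders had a median log2 fold change of -0.36, and medians of -0.71, -0.62 and 0.087 log2 units against the control mean in RARdn 1, 2 and 3. The 25 members with a window and no ERSE had a median of -0.073, and -0.60, -0.17 and 0.25 in the same libraries. The 2 sets were thus nearest in RARdn 1 and farthest apart in RARdn 2. Among 13 tested genes that hold the ERSE and are no members, the median was -0.079, and -0.21, 0.0031 and 0.051 in the 3 libraries. The holders do not move as 1 group, since Derl3 was above every control in RARdn 2 and Hsp90b1 was at its lowest there.

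Exon length also went with the differences among members. Across the 40 genes, the Spearman correlation between exon length and log2 fold change was -0.33, and between GC content of the longest transcript and log2 fold change 0.44, while across 19000 annotated genes tested they were 0.037 and 0.11. These are correlations across genes, which are not independent replicates and share the 6 libraries. Of the 10 members with the shortest exons (1108 to 2333 bases), 7 had a log2 fold change above 0, against 1 of the 10 with the longest (5141 to 10431 bases). By library the correlation with length was 0.038 in RARdn 1, -0.41 in RARdn 2 and -0.34 in RARdn 3. With a correction for GC content and length, chosen after the data were seen, edgeR called 0 members and 733 of all 18989 genes. The median was -0.21 over the members and 0.0011 over all genes.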

How the data were processed

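Total RNA of 6 whole pancreata at e16.5 was sequenced, and 1 table of raw read counts per gene symbol was deposited for each. HISAT2 and HTSeq, with cutadapt, FastQC, bedtools and DESeq2, are the tools listed, and mm10 and GRCm38 the builds, per the submitters' processing notes. Their versions, the annotation and the strand setting: not given in the sources used here. The 5 summary lines, 25.4% to 31.5% of reads, were left out. Genes passing filterByExpr were scaled by TMM and tested with edgeR 4.0.16 in R 4.3.3 (glmQLFit, glmQLFTest, 2-sided, genotype only, Benjamini-Hochberg adjustment over 19070 genes, called under 0.05). Levels are CPM after TMM scaling. SE was taken as the size of the log2 fold change divided by the root of F, and intervals use the test's degrees of freedom. Alternatives used DESeq2 1.42.0 and limma 3.58.1, and the edgeR step was tested on simulated data. There it recovered 30% of 1.5-fold, 74% of 2-fold and 94% of 3-fold changes (50 genes each), and 3.87% of its calls were false. Many differences of 1.5-fold were thus missed in the simulation. It drew genes independently and with the same spread in both groups, while most genes here varied more among RARdn libraries. Its rates therefore need not hold for the members. Gene models were GENCODE M21. All 40 members were named by rule, and of other pathway lists the called genes or the most abundant. Members and lists were chosen with earlier results of these data known. Exons of 13 members overlap another gene, and without strand those reads cannot be assigned: Hsp90b1, Dnajb9, Manf, Pdia3, Pdia4, Pdia6, Eif2ak3, Syvn1, Derl2, Sec61a1, Ssr2, Ddit3 and Ppp1r15a. No 2 libraries were copies, since chi-square per degree of freedom was at least 13.8 within groups.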

Additional observations from a re-analysis of the deposited data

How the results depend on the processing

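The 6 branch medians kept their sign under every alternative that used all 6 libraries. When each library was left out they ranged from -0.57 (without RARdn 3) to -0.037 (without RARdn 1) for chaperones, and in the same order from -0.61 to -0.26 for isomerases, -0.26 to 0.0025 for sensors, -0.39 to -0.0015 for degradation and -0.31 to 0.10 for translocation. The ATF4 target median ranged from 0.057 (without RARdn 3) to 0.46 (without RARdn 1). The count of members called, 0 by edgeR, was 2 with DESeq2 (Atf6 and Edem1), 2 without a filter on low counts and 2 with the replicate block (both times Dnajb9 and Atf6), and 0 to 17 when each library was left out in turn. It stayed 0 with limma-voom, RLE factors, library totals, removal of the acinar enzyme genes, at least 1 CPM in 3 libraries, the acinar and Xist terms and the GC content and length correction. Whether the replicate numbers pair the samples was not settled. Same-numbered libraries had correlations of 0.025, -0.060 and 0.17 in their deviations from the group means. The libraries numbered 3 correlated best with each other, while control 1 correlated best with RARdn 2 (0.167). The block left 817 genes called in all, against 767. That total was 1946 with DESeq2, 474 with library totals, 2346 without a filter, 217 with at least 1 CPM in 3 libraries, 1434 with the acinar term, 55 with the Xist term, and 100 to 2980 when each library was left out. The causes were not tested.

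Members near 0 changed sign without being called. These were Pdia2 with limma-voom (-0.047) and the replicate block (-0.071), Ssr3 with at least 1 CPM in 3 libraries (-0.0087) and the block (-0.0062), Eif2ak3 with the block (-0.013), Herpud1 with the block (-0.022) and the Xist term (-0.023), and Ppp1r15a with the Xist term (-0.12) and the GC content and length correction (-0.031). When each library was left out, log2 fold changes ranged from -0.19 to 0.51 for Pdia2, -0.15 to 0.15 for Ssr3, -0.26 to 0.27 for Eif2ak3, -0.27 to 0.196 for Herpud1, -0.050 to 0.085 for Ppp1r15a, -0.18 to 0.074 for Ern1, -0.048 to 0.16 for Sec61b, -0.42 to 0.071 for Sdf2l1, -0.55 to 0.026 for Dnajb11, -0.43 to 0.0030 for Hyou1, -0.38 to 0.058 for Manf, -0.61 to 0.057 for P4hb, -0.44 to 0.0010 for Xbp1, -0.12 to 0.105 for Atf4, -0.61 to 0.079 for Edem2, -0.48 to 0.050 for Sec61a1, -8.2e-05 to 0.28 for Syvn1 and -0.088 to 0.47 for Derl3. The RARdn minus control difference in the acinar enzyme share, 0.456 percentage points, ranged from -3.81 to 6.51 when each library was left out, and for the acinar regulators it was -0.0415.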
